A study of Arabidopsis thaliana with 8 samples.

Results

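Chitinases and beta-1,3-glucanases are enzymes that cut the main polysaccharides of fungal cell walls. The genes described here were chosen by their locus names and not by a threshold on their levels, but earlier results of these data were known. The set held the putative chitinase gene CHI (AT2G43570), its neighbours AT2G43580, AT2G43590 and AT2G43620, the chitinase genes EP3 (AT3G54420), HCHIB (AT3G12500) and CHIA (AT5G24090), and the beta-1,3-glucanase gene AT4G16260. Of these 8 genes, 5 had a probe set in the platform annotation used here. EP3, a class IV chitinase, HCHIB, the basic chitinase also known as pathogenesis-related 3, and CHIA, chitinase A, had none and were not analysed here.

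Chitinases hydrolyse chitin, which fungal walls contain and plant walls lack. Beta-1,3-glucanases hydrolyse the glucan of fungal walls and also callose, the plant's own beta-1,3-glucan, which is laid down in cell plates, at plasmodesmata and at sites of wounding or infection. Several members of both families are counted among the pathogenesis-related proteins, which plants secrete or store in vacuoles after infection, and members of both families are also known to respond to water deficit, cold or wounding.

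Leaf RNA of wild type Arabidopsis (Col-0, WT) and of VaNAC26-OE lines was measured on Affymetrix ATH1 arrays, on which a transcript is read by several short oligonucleotides, together named a probe set. The OE lines carry the coding sequence of VaNAC26, a NAC transcription factor gene of the wild grapevine Vitis amurensis, under the CaMV 35S promoter, which is active in most plant tissues. Plants had grown in soil for 21 d, and leaves were taken on 2 days, at the start (WT 0d and OE 0d) and after watering had been stopped for 5 d (WT 5d and OE 5d), with 2 arrays in each of the 4 groups. Each OE sample was an equal pool of leaves of 3 transgenic lines, so differences between lines were not seen, and the transcript of the transgene itself was not analysed here. No plants were kept watered until 5 d, so drought below stands for the step from 0 d to 5 d, in which loss of water, ageing of the plants and the day of harvest cannot be told apart. In leaf RNA, a lower level can come from fewer cells that hold a transcript or from less of it per cell, and these cannot be told apart either.

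Each probe set has 1 deposited intensity on every array, on a linear scale, and log2 of it was fitted with limma over all 8 arrays. For each probe set the 4 groups shared 1 estimate of the spread, so standard errors and intervals do not show the spread of single pairs. The words rose, fell and called are kept for genes whose p-value, adjusted over all 22746 probe sets tested, was under 0.05. The sources do not say whether both arrays of a group were hybridized with RNA of different plants. Where they were not, the spread behind the p-values is technical. The OE 5d pair stood apart from the others, with 1294 probe sets that differed more than 2-fold between its 2 arrays, against 79 to 143 in the other pairs. Of all values, 47.8% lay under an intensity of 32, where a probe set was taken as dim, and the medians of the 8 arrays ran from 36.2 to 38.2. Intensities of different probe sets are not compared with each other, since probes differ in how strongly they bind.

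CHI and AT4G16260 rose with drought in both genotypes, AT2G43580 rose in the OE lines at intensities close to the bottom of the scale, and AT2G43590 fell in WT. AT2G43620 was not called in any comparison. Between genotypes, AT4G16260 was higher in the OE lines before drought, and no gene of the set was called at 5 d. All 5 probe sets carry the plain ending of the array design, without the letters by which Affymetrix marks a probe set that matches several transcripts.

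**Figure D1:**
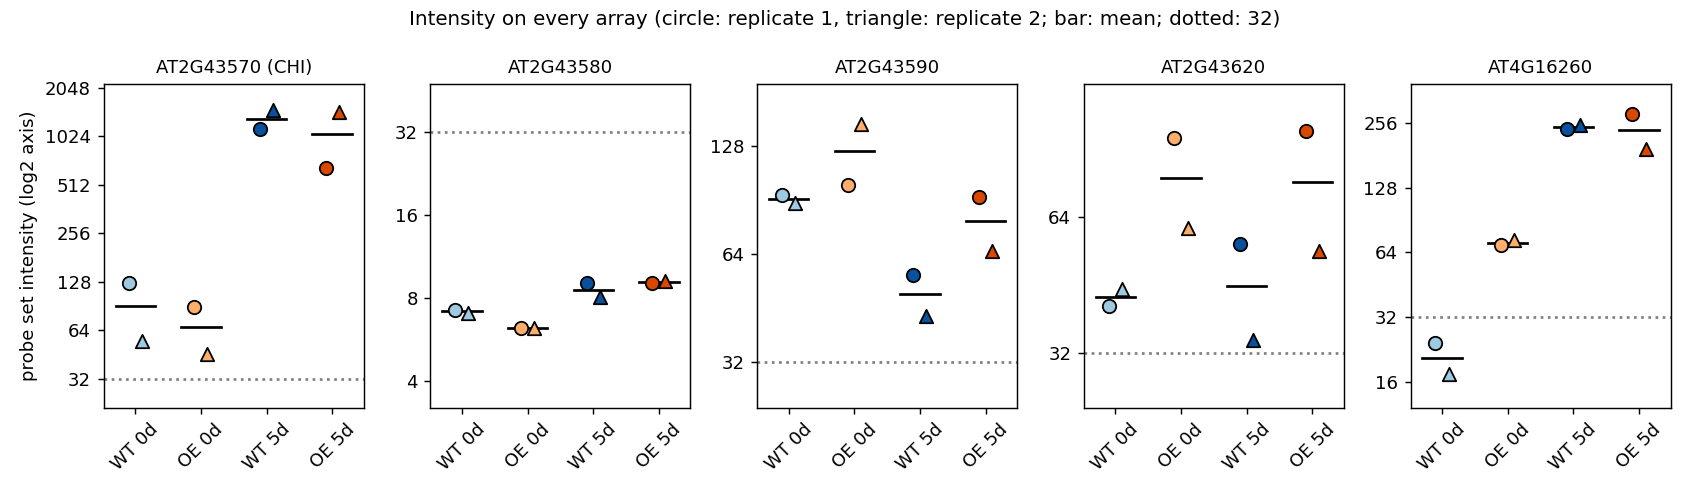
Intensity of the 5 measured chitinase and beta-1,3-glucanase genes on each of the 8 arrays, on a log2 axis with its own range in each panel. Circles are replicate 1, triangles replicate 2, bars the arithmetic mean of the 2 arrays of a group, and the dotted line an intensity of 32. CHI is high on all 4 arrays of 5 d, AT4G16260 is lowest on the WT 0d arrays, and AT2G43580 lies under 32 on every array.

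CHI, annotated as a putative chitinase, read 126.3 and 55.5 on the WT 0d arrays (replicates 1 and 2, in this order throughout) and 89.6 and 45.6 on the OE 0d arrays. At 5 d it read 1141 and 1495 on the WT arrays and 654.0 and 1458 on the OE arrays. All 4 arrays of 5 d were above all 4 arrays of 0 d, and within each day the arrays of both genotypes overlapped. Arrays of 5 d lay clear above those of 0 d for 33% of all probe sets in WT and 26.1% in the OE lines. The level rose 15.6-fold in WT, a log2 fold change of 3.96 ± 0.51 (standard error, here and below; adjusted p = 0.0013, limma), and 15.3-fold in the OE lines (3.93 ± 0.51, adjusted p = 0.0044, limma). The difference between the drought changes of the genotypes, called the interaction below, was -0.03 on the log2 scale, with a 95% interval from -1.68 to 1.62 that spans changes of more than 2-fold either way. OE 0d against WT 0d gave -0.39 (interval -1.56 to 0.78) and OE 5d against WT 5d -0.42 (interval -1.59 to 0.75). The spread within groups was wide, since the 2 arrays differed 2.28-fold in WT 0d, 1.97-fold in OE 0d and 2.23-fold in OE 5d. No value of CHI lay under 32, so a floor of 32 left its fold changes as they were. The rise in the OE lines was no longer called when values under 32 were set to 32 (adjusted p = 0.0533, limma) or when OE 0d replicate 2 was left out (adjusted p = 0.0526, limma).

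The beta-1,3-glucanase gene AT4G16260 read 24.1 and 17.4 on the WT 0d arrays and 69.0 and 73.1 on the OE 0d arrays. At 5 d it read 240.6 and 251.3 on the WT arrays and 282.3 and 193.3 on the OE arrays. Before drought the OE arrays were therefore clear of the WT arrays, and at 5 d the OE arrays lay on either side of both WT arrays. OE 0d arrays lay clear above those of WT 0d for 23.1% of all probe sets. Relative to the mean log2 intensity of WT 0d, the OE 0d arrays stood at 1.75 and 1.83, and the WT 5d arrays at 3.55 and 3.62.

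At 0 d the level of AT4G16260 was 3.47-fold higher in the OE lines, a log2 fold change of 1.79 ± 0.22 (interval 1.29 to 2.30, adjusted p = 0.0479, limma). It was the 1 gene of the 5 that was called in this comparison, in which 0.0791% of all probe sets were called (0.0528% higher). That adjusted p is close to the threshold, and the call was lost in 8 of 15 alternatives. Both WT 0d values lay under 32, and a floor of 32 brought the log2 fold change to 1.15 (adjusted p = 0.245, limma). Leaving out dim probe sets gave an adjusted p of 0.0519 (limma). Leaving out 1 array raised the adjusted p to 0.467 (without OE 0d replicate 1), 0.461 (OE 0d replicate 2), 0.252 (WT 0d replicate 1), 0.386 (WT 0d replicate 2) or 0.120 (either WT 5d replicate), all from limma.

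With drought, AT4G16260 rose 12-fold in WT (log2 fold change 3.59 ± 0.22, adjusted p = 0.0005, limma) and 3.29-fold in the OE lines (1.72 ± 0.22, adjusted p = 0.0043, limma). At 5 d the genotypes gave -0.07 on the log2 scale (interval -0.58 to 0.43), an interval that ends well short of the 0 d difference. The interaction was -1.87 (interval -2.58 to -1.15), the smaller change being that of the OE lines. Its adjusted p was 0.119 (limma), so no gene of the set was called for the interaction, as 0.0308% of all probe sets were. AT4G16260 was the 1 gene with an unadjusted p under 0.05, as 14.8% of all probe sets had, and with a fold change over 2 it also met the threshold in the methods of the study, as 1.81% did in that direction. The spread of the OE 5d pair bore on it, with -2.14 (adjusted p = 0.0147, limma) without OE 5d replicate 1, where 0.769% of all probe sets were called, and -1.59 (adjusted p = 0.00599, limma) without OE 5d replicate 2, where 18.3% were. The comparisons OE 0d against WT 0d and WT 5d against WT 0d share the WT 0d arrays, so the high values of both rest in part on the same 2 dim readings. The size of the interaction rests on them too. The rise in the OE lines had an adjusted p of 0.0508 (limma) without OE 0d replicate 2 and was called in each other alternative.

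AT2G43590, a chitinase family gene, read 93.5 and 88.5 on the WT 0d arrays, 99.7 and 147.7 on the OE 0d arrays, 55.9 and 42.8 on the WT 5d arrays, and 92.4 and 65.2 on the OE 5d arrays. WT 5d was lowest, below each other group on both arrays, and OE 0d was highest. The level fell by 0.89 ± 0.25 on the log2 scale in WT with drought (interval -1.46 to -0.33, adjusted p = 0.0263, limma). In the OE lines the change was -0.64 (interval -1.21 to -0.08, adjusted p = 0.131, limma), and the interaction of 0.25 (interval -0.55 to 1.05, adjusted p = 0.785, limma) did not separate both. The OE lines gave 0.42 over WT at 0 d (adjusted p = 0.722, limma) and 0.67 at 5 d (interval 0.10 to 1.23, adjusted p = 0.264, limma), without overlap of the arrays on either day. Groups of 2 do not overlap in this direction for 23.1% of all probe sets at 0 d and 19.6% at 5 d. No value of AT2G43590 lay under 32, so a floor of 32 left its fold changes as they were. The fall in WT was not called with values under 32 set to 32 (adjusted p = 0.124, limma) or on leaving out WT 0d replicate 1 (0.130), WT 0d replicate 2 (0.100) or WT 5d replicate 2 (0.170). Conversely, without OE 5d replicate 1 the change of the OE lines was -0.90 (adjusted p = 0.0317, limma), and without OE 5d replicate 2 the genotypes differed at 5 d by 0.92 (adjusted p = 0.0343, limma), in a fit that called 20.5% of all probe sets.

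AT2G43620, of the same chitinase family, read 40.8 and 44.5 on the WT 0d arrays, 95.8 and 60.5 on the OE 0d arrays, 55.9 and 34.3 on the WT 5d arrays, and 99.6 and 53.8 on the OE 5d arrays. On both days replicate 1 of the OE lines held the highest value. The OE lines gave 0.84 over WT at 0 d on the log2 scale (interval 0.03 to 1.65, adjusted p = 0.577, limma), with no overlap of the arrays, and 0.74 at 5 d (interval -0.07 to 1.55, adjusted p = 0.346, limma), where OE 5d replicate 2 lay under WT 5d replicate 1. Such a gap at 0 d, with the OE lines higher, was found for 23.1% of all probe sets. Drought gave 0.04 in WT (interval -0.77 to 0.85) and -0.06 in the OE lines (interval -0.87 to 0.75). The 5 d difference of the genotypes was 1.19 (adjusted p = 0.0339, limma) in that same fit without OE 5d replicate 2.

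AT2G43580, also of this family, read 7.28 and 7.10 on the WT 0d arrays, 6.24 on both OE 0d arrays, 9.07 and 8.05 on the WT 5d arrays, and 9.12 and 9.22 on the OE 5d arrays. All 8 values are far under 32, in the range where a difference of a few units makes a fold. With drought it rose by 0.55 ± 0.13 on the log2 scale in the OE lines (adjusted p = 0.0277, limma), and in WT the change was 0.25 ± 0.13 (adjusted p = 0.198, limma), with an interaction of 0.31 (interval -0.12 to 0.73, adjusted p = 0.472, limma). With values under 32 set to 32 it had no fold. The rise in the OE lines was not called when the 4 arrays of the comparison were fitted alone (adjusted p = 0.0986, limma), without either OE 0d array (0.144 and 0.163) or without either WT 0d array (0.0561). The same value on both arrays of a group, as in OE 0d, was found for 23 of the 22746 probe sets in that group.

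**Figure D2:**
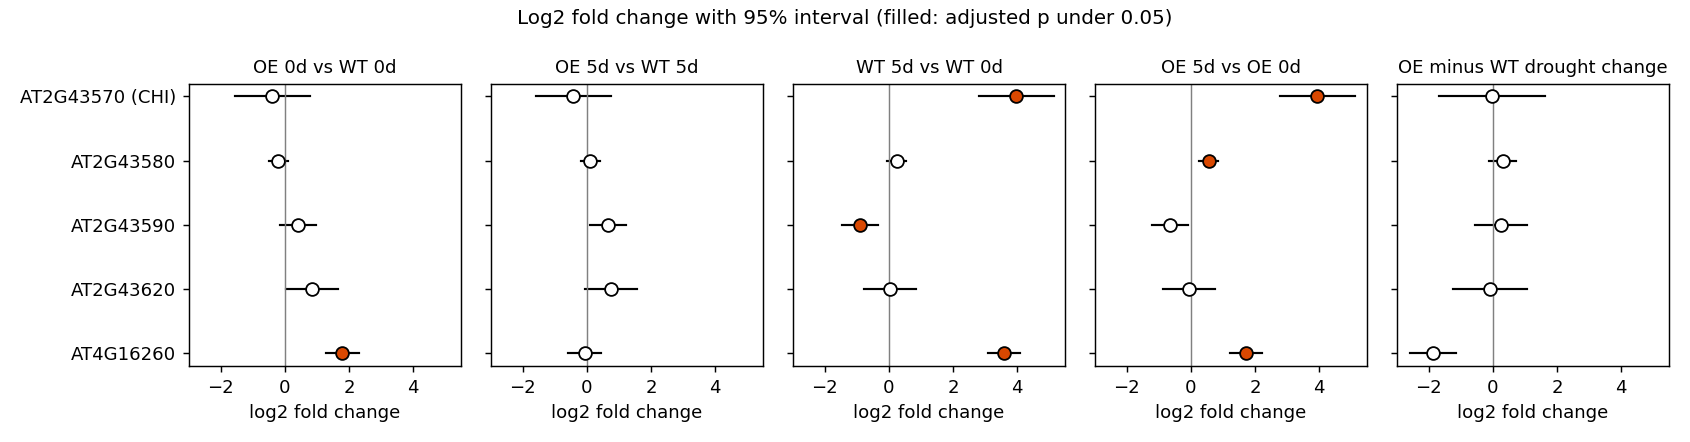
Log2 fold changes of the 5 genes in the 4 comparisons and in the difference between the drought changes of the OE lines and WT (last panel), with 95% intervals from limma. Filled points have an adjusted p under 0.05. CHI and AT4G16260 are filled for drought in both genotypes, and in the last panel the interval of AT4G16260, from -2.58 to -1.15, lies to the left of 0 with an open point.

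Counted over the set, 2 of the 5 genes rose and 1 fell with drought in WT, where 15.7% of all probe sets rose and 14.8% fell. In the OE lines 3 rose and none fell at the adjusted threshold, against 7.06% and 6.53% of all probe sets. Between genotypes at 5 d none was called by limma, against 0.0484% of all probe sets, and 1, AT2G43590, had an unadjusted p under 0.05, against 15.9%. The median log2 fold change of the 5 genes was 0.25 with drought in WT and 0.55 in the OE lines, 0.42 between genotypes at 0 d and 0.10 at 5 d. Over all probe sets the same medians, in this order, were 0.01, -0.01, -0.01 and -0.004. With 5 genes that were chosen by name while earlier results of these data were known, these counts are a description.

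The levels of a gene can be ordered over the 4 groups as a description. For CHI the order of means was OE 0d, WT 0d, OE 5d and WT 5d, and the arrays overlapped within each day. For AT4G16260 it was WT 0d, OE 0d, OE 5d and WT 5d, and of these neighbours only the last pair overlapped. For AT2G43590 it was WT 5d, OE 5d, WT 0d and OE 0d, with an overlap of OE 5d and WT 0d. For AT2G43620 it was WT 0d, WT 5d, OE 5d and OE 0d, and each pair of neighbours in the order overlapped. AT2G43580, dim on all 8 arrays, had the order OE 0d, WT 0d, WT 5d and OE 5d, and no pair of neighbours overlapped. Gaps without overlap were found for 19.6% (OE 5d over WT 5d) to 33% (WT 5d over WT 0d) of all probe sets. For a gap with OE 0d under WT 0d no share is given here.

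CHI, AT2G43580, AT2G43590 and AT2G43620 lie in a run of 6 chitinase family genes that follow each other among the protein-coding genes of chromosome 2 in the RefSeq annotation, with AT2G43600 and AT2G43610 between the last pair. Along the run, CHI, at 1 end, rose 15.6-fold in WT, and its neighbours AT2G43580 and AT2G43590 gave 0.25 and -0.89 on the log2 scale. AT2G43600 stayed between 5.83 and 9.29 on the 8 arrays, with log2 fold changes of -0.25 in WT and -0.14 in the OE lines. AT2G43610 read between 14.3 and 37.6, the highest on OE 5d replicate 1, with -0.34 in WT and 0.14 in the OE lines. Neither was called in any comparison. Both are dim.

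**Figure D3:**
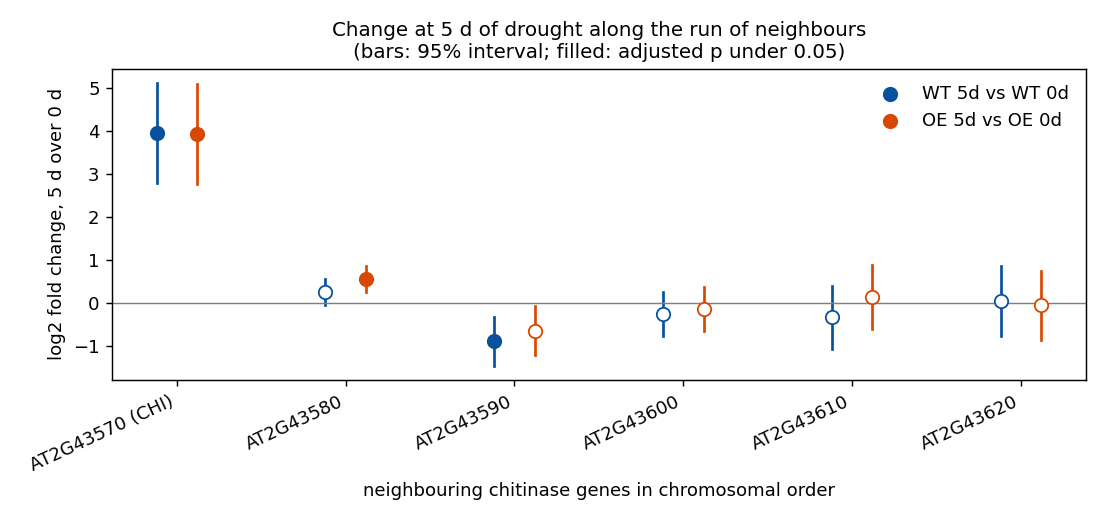
Log2 fold change from 0 d to 5 d along the run of 6 neighbouring chitinase genes, in chromosomal order and not to scale in distance, for WT (blue) and the OE lines (orange), with 95% intervals from limma. Filled points have an adjusted p under 0.05. CHI stands near 4 in both genotypes, and the intervals of the other 5 genes all lie under 2.

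Chitinase genes elsewhere in the genome were counted from a list of 17 other family members, of which 11 had a probe set, AT2G43600 and AT2G43610 included. In WT 3 of the 11 rose and 2 fell with drought, where 15.7% and 14.8% of all probe sets did. Among OE plants none of the 11 rose and 1 fell by limma, against 7.06% and 6.53% of all probe sets. An unadjusted p under 0.05 was found there for 1 gene in each direction, and for 27.9% of all probe sets. AT4G01700 read 74.3 and 52.4 on the WT 0d arrays and 293.9 and 389.8 on the WT 5d arrays, a rise of 2.44 on the log2 scale (adjusted p = 0.0014, limma). In the OE lines it read 103.2 and 86.8 at 0 d and 130.4 and 245.9 at 5 d, a change of 0.92 (adjusted p = 0.0945, limma). AT1G02360 rose by 1.72 (adjusted p = 0.0043, limma) and AT3G47540 by 1.37 (adjusted p = 0.0145, limma) in WT, with 0.52 and 0.49 in the OE lines. On OE 5d replicate 1 these 3 genes read 130.4, 37.7 and 272.1, and on OE 5d replicate 2 245.9, 66.7 and 525.7, so that 1 array of the pair was close to the OE 0d level and the other was well above it.

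The difference between the genotypes' drought changes was -1.52 for AT4G01700, -1.20 for AT1G02360 and -0.89 for AT3G47540, with adjusted p of 0.217, 0.276 and 0.411 from limma, so none was called. Without OE 5d replicate 1, 3 of the 11 genes rose in the OE lines, and without OE 5d replicate 2, 2 rose. ChiC (AT4G19810), a class V chitinase, fell by 0.82 in WT (adjusted p = 0.0168, limma) and gave -0.14 in the OE lines, at intensities under 23 on all arrays. Its neighbour in number, AT4G19820, read 34.2 and 25.7 in WT 0d, 26.8 and 28.3 in OE 0d, 11.4 and 12.8 in WT 5d, and 10.8 and 12.1 in OE 5d. It fell in both genotypes, by 1.29 in WT (adjusted p = 0.0015, limma) and by 1.26 in OE plants (adjusted p = 0.0052, limma). Both falls lay mostly in the dim range, and with values under 32 set to 32 no other chitinase fell and 1 rose in WT. In WT, 2 rose and 1 fell without WT 0d replicate 1 or WT 5d replicate 2. The median of the 11 was -0.16 in WT and 0.14 in the OE lines. Between genotypes none of the 11 was called by limma on either day. An unadjusted p under 0.05 was found at 0 d for 0 genes in the direction of a higher OE level and for 1 of a lower (8.41% of all probe sets had such a p), and at 5 d for 1 and 2 (15.9% of all probe sets). The fit without OE 5d replicate 2 called 1 of the 11 higher and 3 lower at 5 d, and 2 and 3 for the interaction, in the setting where it called 20.5% and 18.3% of all probe sets.

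Of 49 other beta-1,3-glucanase family genes, which include callose-degrading enzymes of plasmodesmata and proteins of wall growth besides those of defence, 39 had a probe set. In WT, 2 of the 39 rose and 14 fell with drought, where 15.7% and 14.8% of all probe sets did. The OE lines had 2 that rose and 3 that fell. The falls of WT were led by AT5G55180, AT2G05790 and AT4G29360. AT5G55180 read 329.1 and 276.5 in WT 0d and 32.4 and 39.9 in WT 5d, and fell by 3.07 on the log2 scale (adjusted p = 0.0010, limma). In the OE lines it read 128.6 and 237.5 at 0 d and 136.4 and 73.2 at 5 d, with overlapping arrays and a change of -0.81 (adjusted p = 0.182, limma). AT2G05790 fell by 2.43 in WT (adjusted p = 0.0037, limma), from 691.6 and 517.3 to 132.7 and 92.5, and in the OE lines read 439.0 and 432.3 at 0 d and 556.0 and 204.7 at 5 d (-0.37, adjusted p = 0.650, limma). AT4G29360 read 43.2 and 27.0 in WT 0d, 21.1 and 22.9 in OE 0d, 7.71 and 5.75 in WT 5d, and 22.9 and 12.6 in OE 5d, with 7 of its 8 arrays under 32. It fell by 2.36 in WT (adjusted p = 0.0015, limma) and gave -0.37 in the OE lines, so that its folds here and below rest on dim readings.

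For these 3 glucanase genes the drought change of the OE lines differed from that of WT by 2.26, 2.06 and 1.98 on the log2 scale, with adjusted p of 0.162, 0.212 and 0.164 from limma, so that the difference itself was not called. At 5 d the OE lines gave 1.47, 1.61 and 1.35 over WT, with adjusted p of 0.181, 0.188 and 0.179 (limma). AT1G11820 fell in both genotypes, by 1.48 in WT (adjusted p = 0.0027, limma) and by 0.90 in OE plants (adjusted p = 0.0402, limma). AT3G07320 fell by 1.47 in WT (adjusted p = 0.0014, limma) and gave -0.37 in the OE lines (adjusted p = 0.259, limma). AT2G26600 went the other way, with a rise of 1.52 in WT (adjusted p = 0.0008, limma) and 0.77 in the OE lines (adjusted p = 0.0183, limma). Between genotypes none of the 39 was called by limma, and at an unadjusted p under 0.05 the OE lines had 0 higher and 1 lower at 0 d, where 8.41% of all probe sets had such a p, and 6 higher and 3 lower at 5 d, where 15.9% had. The medians of the 39 genes with drought were -0.15 in WT and -0.07 in the OE lines.

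The counts of the glucanase family moved with single arrays and with the processing. In the OE lines none rose or fell without either OE 0d array, 4 rose and 8 fell without OE 5d replicate 1, and 2 rose and 2 fell without OE 5d replicate 2. The falls of WT numbered 10 when WT 0d replicate 1 was left out and 11 when WT 5d replicate 2 was. A floor of 32 left 9 falls in WT in place of 14, and in the OE lines 0 rises and 3 falls. Fitted on the 4 arrays of the comparison alone, the OE lines had 0 of either. Between genotypes at 5 d, the fit without OE 5d replicate 2 called 7 of the 39 higher and 1 lower, and the same numbers for the interaction, again among 20.5% and 18.3% of all probe sets. The 12-fold rise of AT4G16260 in WT was opposite in direction to most of the called genes among these 39. AT3G57260, AT3G57270, AT3G57240 and AT5G20340 were among the listed genes without a probe set and could not be set beside it.

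**Figure D4:**
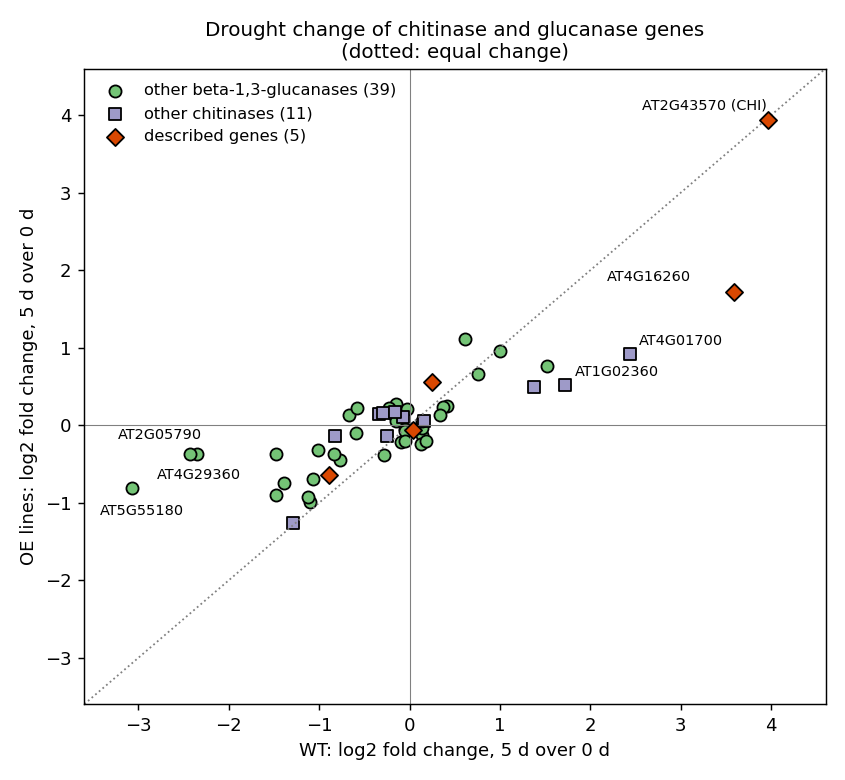
Log2 fold change from 0 d to 5 d in WT (x axis) and in the OE lines (y axis) for the 5 described genes (diamonds), 11 other chitinases (squares) and 39 other beta-1,3-glucanases (circles), with a dotted line where both changes are equal. CHI lies near the dotted line, AT4G16260 lies to its right at 3.59 and 1.72, and AT5G55180 is farthest left at -3.07 and -0.81.

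Genes whose levels ran most like those of a described gene over the 8 arrays were found among 13435 other named probe sets by the root-mean-square difference of log2 intensities, each centred on its own mean. For CHI they were AT5G52760, AT3G13950 and AT3G51440, with differences of 0.39, 0.51 and 0.54. For AT4G16260 they were AT4G16146, PDC2, a pyruvate decarboxylase gene, and AT2G25625, with 0.45, 0.52 and 0.53. For AT2G43590 they were AT1G49975, AT4G17810 and AT1G71695, a class III peroxidase gene, with 0.17, 0.18 and 0.19. CHI and AT4G16260 differed from each other by 1.15, and the measure describes a likeness of levels over 8 arrays and nothing more. AT2G43580 and AT2G43620, whose group means spanned only 0.55 and 0.84 on the log2 scale, are left out of this description.

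Few genes of the steps around these enzymes had a probe set. Of 11 genes of chitin perception, in which receptor kinases bind chitin fragments and pass the signal on, 2 were measured. BIK1, a receptor-like cytoplasmic kinase, read 47.4 and 55.3 in WT 0d and 92.3 and 122.6 in WT 5d, a rise of 1.05 (adjusted p = 0.0176, limma), and gave 0.58 in the OE lines (adjusted p = 0.202, limma). The other measured gene of that list went the other way, with -0.31 in WT and -0.45 in the OE lines. It was under 32 on all 8 arrays and was not called. Of 15 genes taken as outputs of defence signalling, 3 were measured. The plant defensin gene PDF1.2 rose by 3.42 in WT with drought (adjusted p = 0.0077, limma) and stood 4.32 higher in the OE lines at 0 d without passing the test (adjusted p = 0.131, limma). PDF1.2b, whose probe set carries the mark of one shared with other transcripts, gave 2.67 (adjusted p = 0.0059, limma) and 3.01 (adjusted p = 0.158, limma) in the same comparisons. At 0 d both defensin genes met the threshold in the methods of the study, as 0.752% of all probe sets did in either direction. Both also met it for the interaction, with -4.02 and -3.09, as 1.81% did in that direction, without being called. THI2.1, a thionin gene, read 70.6 and 13.4 in WT 0d, 43.5 and 158.5 in OE 0d, 9.54 and 9.84 in WT 5d, and 312.1 and 56.8 in OE 5d. It was not called in any comparison, with -1.67 for drought in WT (adjusted p = 0.260, limma), against the rises of both defensin genes. At 5 d it gave 3.78 over WT in the OE lines (adjusted p = 0.188, limma), which met the threshold in the methods of the study.

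Markers of other tissues and states were counted beside these results. For leaf, 1 of 12 markers was measured, RCA, the Rubisco activase gene, with 6992 to 9858 over the 8 arrays and no call. For root, 2 of 8 were measured, and their summed intensity ranged from 113 to 147 in WT 0d, 47.2 to 71.1 in OE 0d, 16.6 to 18.0 in WT 5d and 20.7 to 31.7 in OE 5d. Such a sum is weighted by how brightly each probe set reads, and it is set only against the same sum in other groups. PYK10, a beta-glucosidase gene known from roots, fell by 3.45 in WT (adjusted p = 0.00065, limma) and by 1.43 in OE plants (adjusted p = 0.0239, limma). For leaf senescence, 3 of 10 were measured, and their sum ranged from 97.0 to 130 in WT 0d, 82.8 to 99.4 in OE 0d, 358 to 467 in WT 5d and 304 to 449 in OE 5d. WRKY53, a transcription factor gene of early senescence, rose by 2.41 in WT (adjusted p = 0.0017, limma) and by 2.66 in OE plants (adjusted p = 0.0041, limma). SAG101 rose by 1.41 in WT (adjusted p = 0.0111, limma), and in the OE lines gave 0.57 (adjusted p = 0.292, limma). There it read 18.5 and 38.9 at 5 d against 19.7 and 16.5 at 0 d, so only OE 5d replicate 2 was above both arrays of 0 d. SAG29 gave -0.46 in WT (adjusted p = 0.450, limma) and 0.19 in the OE lines, and was not called. Judged by calls, WRKY53 thus moved with CHI and AT4G16260 between days in both genotypes, SAG101 in WT, and SAG29 in neither. Before drought the OE arrays had the lower root sum and the higher level of AT4G16260. Their part in these results was not tested. None of 8 markers of wounding and heat had a probe set.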

How the data were processed

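The authors deposited 1 intensity per probe set and array on a linear scale for 22810 probe sets of 8 arrays, made by a commercial service from amplified, biotin-labelled RNA. The software that summarized and normalized them is not given in the sources used here, and the labels and the methods name different RNA extraction reagents. Here 64 array controls were left out, log2 was taken of the deposited intensities (none was under the floor of 1), and limma 3.58.1 in R 4.3.3 (lmFit, eBayes) was fitted with 1 mean per group and 4 residual degrees of freedom, with Benjamini-Hochberg adjustment over 22746 probe sets. An exact permutation test of 2 arrays against 2 cannot go below 0.333 (two-sided) and was not used. Python 3.11.15 with pandas 2.3.3, numpy 2.4.6 and matplotlib 3.10.9 made the tables and figures.

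Loci came from the platform annotation through Entrez identifiers to the RefSeq table (TAIR10.1): 13513 probe sets had 1 symbol, 503 several and 8730 none listed. Start positions in the RefSeq table served only to order neighbouring genes. No other coordinates were used, since no build is named with the values. The described genes and the 8 lists beside them (130 genes, each list with under 80% of its genes measured) were chosen with earlier results of these data known. Every described gene was named, with up to 6 called genes of a list, by size, and the 3 nearest in pattern of each gene whose group means spanned over 1 on the log2 scale. The fit was checked on simulated data with the same spread in all 4 groups, so the check does not cover the wider spread of the OE 5d pair. Arrays have no depth, and their number limits the precision. The fit was repeated with a replicate block, with only the 4 arrays compared, with quantile normalization, median centring, dim probe sets left out (mean log2 under 5), a trended robust eBayes, a floor of 32, the threshold of the methods, and each array left out.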

Additional observations from a re-analysis of the deposited data

How the results depend on the processing

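Over all alternatives, 318 of 360 log2 fold changes of the 5 genes kept their direction and their side of the threshold, 20 lost and 5 gained a call, and 17 changed sign, each of these on leaving out 1 array. The rises of CHI (3.37 to 4.56) and AT4G16260 (2.94 to 3.82) in WT were called in all 15 alternatives. Sign changes touched uncalled values, whose ranges were -0.98 to 0.20 (OE 0d against WT 0d), -0.998 to 0.16 (OE 5d against WT 5d) and -0.62 to 0.56 (interaction) for CHI, -0.034 to 0.53 (interaction) for AT2G43590, -0.50 to 0.39 (drought in OE), -0.31 to 0.39 (drought in WT) and -0.54 to 0.35 (interaction) for AT2G43620, and -0.35 to 0.20 (OE 5d against WT 5d) for AT4G16260. The number of genes called between genotypes at 0 d was 1, with 0 when dim probe sets were left out or values under 32 were set to 32, and 0 to 1 on leaving out 1 array. For drought in the OE lines it was 3, with 1 at the floor of 32 and 0 to 4 without 1 array. Without 1 array it was 0 to 2 between genotypes at 5 d, 2 to 3 for drought in WT, and 0 to 1 for the interaction. With only the 4 arrays compared, drought in the OE lines gave 2, and with dim probe sets left out 2 of the 4 tested. Drought in WT gave 2 at the floor of 32, where 17.2% of all probe sets were called. At that floor 5.57% were called for drought in the OE lines. At the threshold of the methods the number was 2 for drought in either genotype and 1 for the interaction. Of all probe sets, 15.5% met it for drought in WT, 6.3% for drought in the OE lines and 4.93% for the interaction. The cause was not tested. By construction, a floor of 32 shortens folds of dim genes. A missing array leaves fewer degrees of freedom, and a group left with 1 array adds nothing to the estimate of the spread. The floor left the folds of CHI and AT2G43590, without values under 32, as they were. How their calls were lost there was not tested.

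Of all probe sets, the share called between genotypes at 5 d was 20.5% without OE 5d replicate 2, against 0.0484% on all arrays. For the interaction it was 18.3% against 0.0308%, so the calls gained without that array are among many. For drought in the OE lines it was 24.8% without OE 5d replicate 1 and 1.55% with the 4 arrays of the comparison alone, against 13.6%. With dim probe sets left out it was 48% for drought in WT and 26.2% in the OE lines. Arrays with the same replicate number share only that number, with correlations of their deviations between 0.0136 and 0.223, so no pairing was taken. With the replicate number as a block, 1, 0, 3 and 3 of the 5 genes were called in OE 0d against WT 0d, OE 5d against WT 5d, drought in the OE lines and drought in WT, the same numbers as without it. Of all probe sets, 0.114%, 0.101%, 14.3% and 30.9% were called there, in this order.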
